A study of Mus musculus with 18 samples.

Results

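The genes described here are 28 genes of cholesterol synthesis, uptake and efflux, followed over the 6 groups of a mouse kidney study. They were chosen by symbol. The set holds 18 enzymes of the mevalonate and sterol pathway, 4 genes of the SREBP2 system, 2 genes of sterol transport and receptor uptake (Stard4 and Mylip), and 4 genes of cholesterol efflux and the LXR receptors. All 28 were found among the 19545 rows of the expression table, and all 28 passed the filter on low values.

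Kidney RNA of ICR mice, an outbred stock, aged 10 weeks was sequenced in 18 samples that formed 6 groups of 3. HS_AOS mice had a high fat diet and STZ (streptozotocin, which kills insulin-producing cells and so makes mice diabetic) together with AOS at 10 mg/kg. The labels do not spell out AOS. HS_AOS_FMT and HS_control_FMT mice had the high fat diet and STZ plus an FMT (faecal microbiota transplantation), labelled with AOS at 10 mg/kg or with control. HS mice had the high fat diet and STZ alone, AOS mice had AOS at 10 mg/kg without diet or STZ, and control mice carry no treatment in their labels. The labels name neither the donors of the transplants, nor the length of the diet, nor separate mice as the source of each sample, so the spread behind every p-value is that between samples and may be technical. Levels are in FPKM, fragments scaled to transcript length and to library size, and the table gives no read counts, so the depth of the libraries is unknown. Differences are given as log2 of FPKM + 1, a scale on which changes of weakly expressed genes come out too small. A gene is said to have risen or fallen where its p-value from limma, adjusted over all 12385 genes tested, was under 0.05.

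Cells make cholesterol from acetyl-CoA through mevalonate, the isoprenoid farnesyl diphosphate, squalene and lanosterol. When sterols in the endoplasmic reticulum are low, SCAP escorts the transcription factor SREBP2 to the Golgi, where it is cut and released to switch on the genes of these enzymes, and when sterols are plentiful INSIG proteins hold SCAP back. Surplus sterol is sensed by the LXR receptors, which raise the efflux transporters ABCA1 and ABCG1 and the ubiquitin ligase MYLIP, which sends lipoprotein receptors to degradation. In the kidney, tubule cells and podocytes handle cholesterol in these ways, and ABCA1 in podocytes has been studied for its part in diabetic kidney disease.

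Some libraries carried RNA of a neighbouring tissue, the adrenal gland, and fat markers varied between libraries as well. All 10 kidney markers listed were above 1 FPKM in all 18 libraries: Slc34a1, the phosphate transporter of the proximal tubule, lay between 1762 and 3041 FPKM and Cdh16, a cadherin of kidney tubules, between 298 and 415 FPKM. The summed level of the 10 was 70348 to 159678 FPKM in 17 libraries and 19871 FPKM in control 3, and most of it was Kap, a protein of the proximal tubule, at 15798 FPKM in control 3 and 66020 FPKM or more elsewhere. Control 3 was also the lowest library for Slc34a1 and the highest for Aqp2, the water channel of the collecting duct, at 237 FPKM. The adrenal marker Cyp11a1, the enzyme that starts steroid synthesis, was at 63.8 FPKM in HS_AOS_FMT 2, 86.0 FPKM in HS 3 and 106 FPKM in control 3, at 10.6 FPKM in HS_AOS_FMT 3, and at 1.09 FPKM or less elsewhere. The summed level of the 15 adrenal markers was 525, 751 and 1071 FPKM in the 3 adrenal-rich libraries, 138 FPKM in HS_AOS_FMT 3 and 44.7 to 74.5 FPKM in the others, where most of it was Fdx1, a gene that kidney also expresses. Control 3 stood apart as well, with Pearson correlations across genes of 0.947 to 0.965 with the other libraries. Adrenal cortex makes steroid hormones from cholesterol, so values without these 3 libraries are given below for the named genes whose call changes. In bulk tissue, fewer cells of a type and less RNA per cell cannot be told apart.

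The upstream sequences of 5 genes are shown because the results turn on them or because they hold a motif of the pathway. RefSeq promoters (GRCm38.p6, up to 250 bases before the annotated start) matched 23 of the 28 genes and gave 30 windows. Motifs were searched on both strands: TCACNCCAC, the core of a sterol regulatory element; CCAAT, the box bound by NF-Y; and a direct repeat of GGTNA with starts 10 bases apart, the spacing bound by LXR with its partner RXR, which was added after the values were seen. The motifs are in capitals, and ATTGG is CCAAT on the other strand. Hmgcs1 (chr13:119690101-119690350, plus strand) was the only 1 of the 30 windows with TCACNCCAC, and Insig1 (chr5:28071162-28071411, plus strand), Pmvk (chr3:89454291-89454540, plus strand) and Dhcr7 (chr7:143822917-143823166, plus strand) are shown because they passed a test below. Pmvk and Dhcr7 also have windows that are not shown. That of Dhcr7 at chr7:143829964-143830213 holds 2 matches of CCAAT, and the further window of Pmvk holds none of the motifs.
Hmgcs1: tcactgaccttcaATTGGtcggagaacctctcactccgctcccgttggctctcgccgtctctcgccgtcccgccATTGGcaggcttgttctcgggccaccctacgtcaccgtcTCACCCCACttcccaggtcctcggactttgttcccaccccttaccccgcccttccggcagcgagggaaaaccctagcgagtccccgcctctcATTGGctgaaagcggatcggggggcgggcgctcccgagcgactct
Insig1: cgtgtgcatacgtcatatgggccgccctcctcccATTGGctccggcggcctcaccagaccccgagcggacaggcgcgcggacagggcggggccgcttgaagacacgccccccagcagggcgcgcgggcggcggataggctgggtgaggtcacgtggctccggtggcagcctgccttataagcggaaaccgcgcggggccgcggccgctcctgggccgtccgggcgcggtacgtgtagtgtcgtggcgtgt
Pmvk: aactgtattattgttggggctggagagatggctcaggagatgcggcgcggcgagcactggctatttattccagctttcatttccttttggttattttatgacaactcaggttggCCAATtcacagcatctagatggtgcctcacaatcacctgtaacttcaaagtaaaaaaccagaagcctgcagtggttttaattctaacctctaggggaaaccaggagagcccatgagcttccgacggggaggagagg
Dhcr7: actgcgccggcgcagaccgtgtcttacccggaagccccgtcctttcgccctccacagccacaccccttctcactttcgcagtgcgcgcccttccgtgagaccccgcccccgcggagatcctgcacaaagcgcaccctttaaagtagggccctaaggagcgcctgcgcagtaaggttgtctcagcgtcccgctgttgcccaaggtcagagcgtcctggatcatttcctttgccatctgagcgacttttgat
For Abca1, 30 bases around the repeat of GGTNA are shown (chr4:53159940-53159969, minus strand), read on the strand of the gene.
Abca1: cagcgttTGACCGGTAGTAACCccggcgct
CCAAT stood in 18 of the 30 windows (60%), against 33.8% of all 32851 RefSeq promoters of the same length. TCACNCCAC stood in 3.33% of the windows against 1.05% of all promoters, and the repeat in 3.33%, the window of Abca1 alone, against 0.621%. A match is a description of letters, and a window without a match says only that these letters are not in it.

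Transcript levels differed widely from step to step of the pathway. Hmgcs1, which makes HMG-CoA, had the highest mean over the 18 libraries of the 28 genes, at 183 FPKM, followed by the lanosterol demethylase Cyp51 at 81.7 FPKM, Nsdhl at 65.5 FPKM and the sterol isomerase Ebp at 55.0 FPKM. Lanosterol synthase, Lss, which closes squalene epoxide into the first sterol, averaged 3.33 FPKM, the lowest of the 18 enzymes. Abcg1, an efflux transporter of macrophages and other cells, lay at 0.46 to 1.82 FPKM, close to the filter. The receptors Nr1h2 (LXR beta) and Nr1h3 (LXR alpha) averaged 53.5 and 28.4 FPKM.

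**Figure D1:**
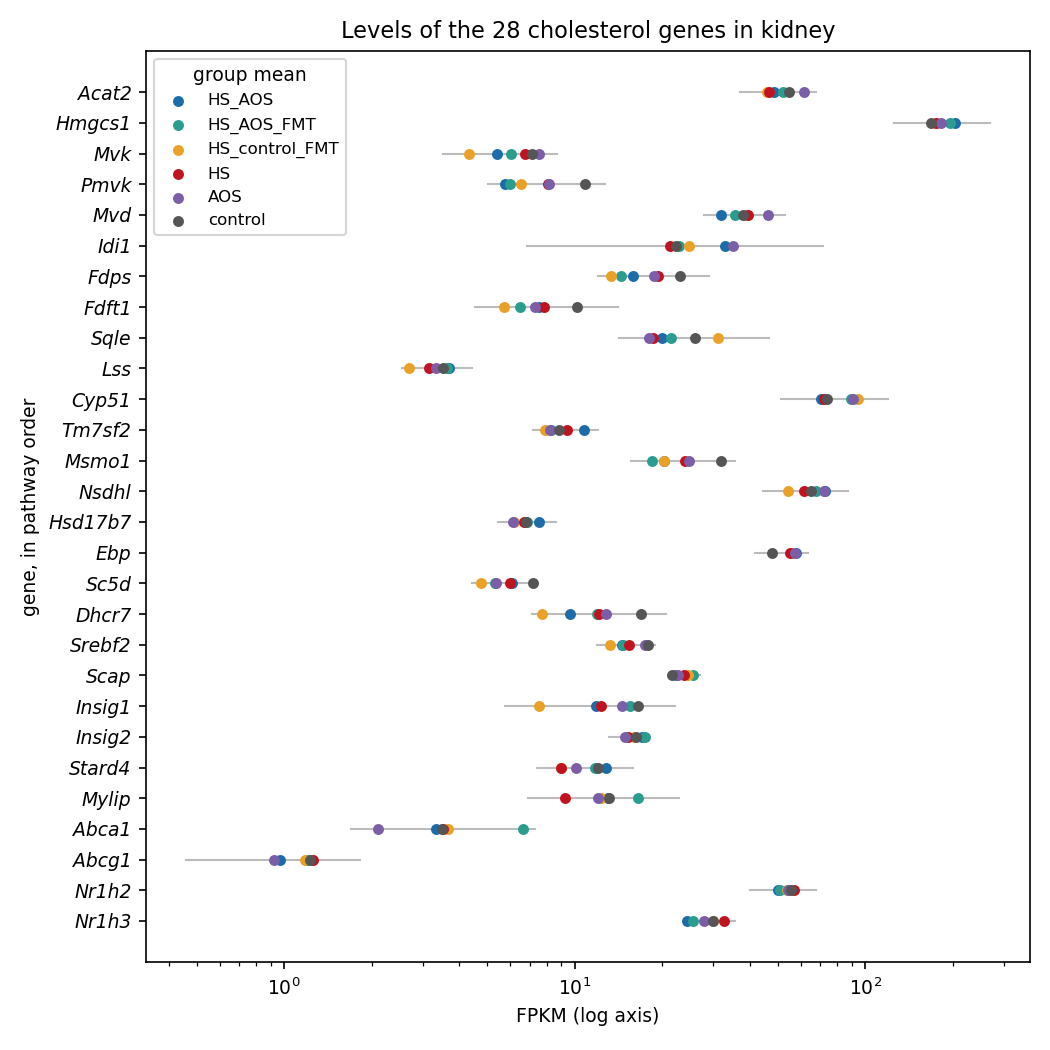
Level of each of the 28 genes in FPKM on a log axis, with genes in pathway order from top to bottom. Coloured points are the means of 3 libraries of a group and grey lines span the 18 libraries. Hmgcs1 lies highest, at a mean of 183 FPKM over all libraries, and Abcg1 lowest.

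Spread among libraries also differed between genes. Scap, the escort of SREBP2, varied least, from 20.9 to 27.0 FPKM, which is 1.30-fold. Idi1, the isopentenyl diphosphate isomerase, varied most, by 10.5-fold, and the same group held both ends of its range: 6.87, 20.1 and 71.8 FPKM in HS_AOS 1 to 3. Its transcript has 41.9% GC, the lowest of the 28, and over all genes the deviations of the same 3 libraries correlated with GC content at a Spearman rho of 0.110, -0.239 and -0.592. The part of base composition in the spread of Idi1 was not tested.

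Taken over the 6 groups, Pmvk, Dhcr7 and Abca1 differed between groups. They were the 3 of the 28 genes that passed limma's F test (adjusted p = 0.0231 for Pmvk, 0.0246 for Dhcr7 and 0.0290 for Abca1), against 8.21% of all genes tested. At an unadjusted p under 0.05 the same test held 10 of the 28, against 28.8% of all genes, and both shares lie near that background. Sc5d (adjusted p = 0.0694), Insig1 (0.0701) and Nr1h3 (0.101) came next in this test. Sc5d passed it with the GC and length trend of the libraries removed (0.0389), but not with quantile normalization (0.176). Insig1 passed with that trend removed (0.0456) and with quantile normalization (0.0451). Nr1h3 passed with neither (0.677 and 0.202). With 1 of the 18 libraries left out at a time, Sc5d passed in 1 case, Insig1 in 2 and Nr1h3 in 1. HS_control_FMT had the lowest mean of the 6 groups for 11 of the 28 genes and for 9 of the 18 enzymes, and the single library HS_control_FMT 3 was the lowest of all 18 for 9 of the 28. Control 3 was the highest library for 11 of the 28. These counts of lowest and highest were not made over all genes, so they are not read as a trait of the 28. Over all genes tested, 65.6% were lower in HS_control_FMT than in HS, and control 3 was the highest control library for 68.6%.

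**Figure D2:**
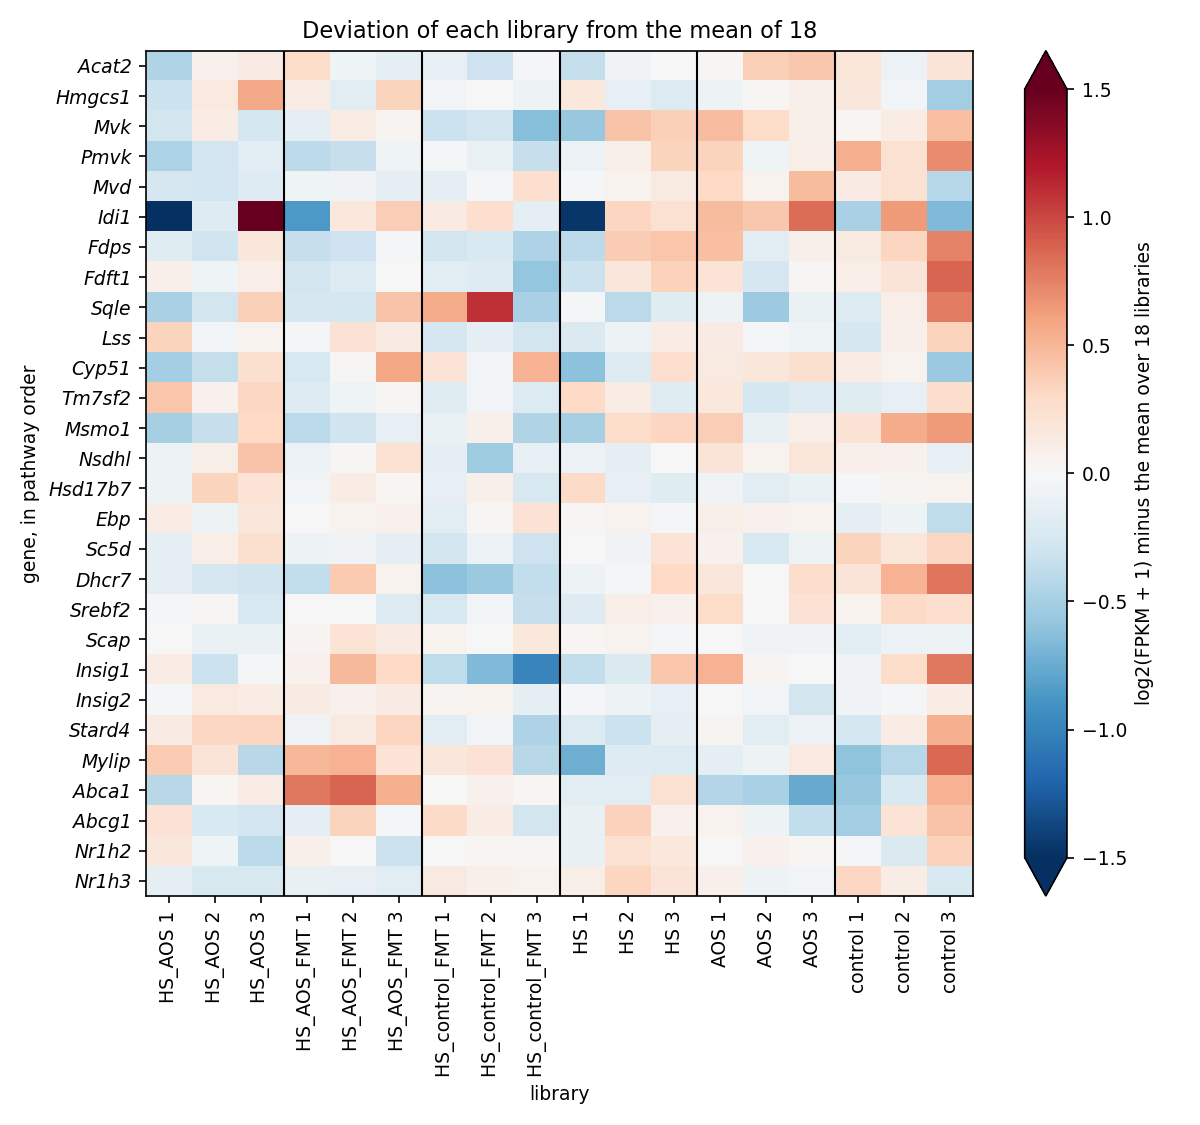
Deviation of every library (columns, in group order) from the mean of the 18 libraries for each of the 28 genes (rows, in pathway order), on the scale of log2(FPKM + 1), with red above and blue below the mean. The colour scale ends at 1.5 in either direction. Idi1 has the widest spread and Abca1 is red in the 3 libraries of HS_AOS_FMT. Control 3 is the highest library for 11 of the 28 genes, a count not made over all genes.

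Between pairs of groups 1 call was made. Insig1 rose in HS_AOS_FMT against HS_control_FMT and was the 1 of 28 genes that passed there, against 2.9% of all genes higher and 3.99% in either direction. Of the 28, limma called 0 in HS against control (0.0646% of all genes), 0 in HS_AOS against HS (2.3%), 0 in HS_AOS_FMT against HS (0.977%), 0 in HS_control_FMT against HS (0.751%), 0 in AOS against control (0.0646%) and 0 for the AOS effect in HS minus that in control (0.0727%). At an unadjusted p under 0.05, 4 of the 28 differed in HS against control (6.63% of all genes), 3 in HS_AOS against HS (20.3%), 6 in HS_AOS_FMT against HS (18.1%) and 4 in HS_control_FMT against HS (15.2%). At the same level 6 differed in HS_AOS_FMT against HS_control_FMT (19.8%), 3 in AOS against control (7.28%) and 5 in the AOS effect in HS minus that in control (15%). The comparisons with HS share the 3 HS samples.

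Signs were uneven in several comparisons, although Insig1 was the only gene called. In HS against control 19 of the 28 genes (67.9%) were lower, against 49.5% of all genes, among them 14 of the 18 enzymes, with a median log2 difference of -0.12 against 0.00 over all genes. In HS_control_FMT against HS 19 of the 28 (67.9%) were lower and 13 of the 18 enzymes, but so were 65.6% of all genes, and the median of -0.09 lay next to that of all genes, -0.08. In HS_AOS_FMT against HS_control_FMT 20 of the 28 (71.4%) were higher, against 63.5% of all genes, with a median of 0.13 against 0.07. With quantile normalization these medians were -0.11, -0.04 and 0.03, against 0.00, -0.01 and 0.01 over all genes, and the median of all genes in AOS against control moved by over 0.1, from -0.09 as deposited to 0.01. In AOS against control 18 of the 28 (64.3%) were lower, against 73.4% of all genes, with a median of -0.08. Without control 3 the count was 12 of 28 (42.9%) and the median 0.02, against 53.8% and -0.01 over all genes. In HS against control without control 3, 19 of the 28 (67.9%) were still lower, with a median of -0.10. Over all genes the share lower was then 32.1% in place of 49.5%, with a median of 0.08. The shares of all genes in both comparisons with control thus depended on control 3. The medians of the 28 in HS_AOS against HS and HS_AOS_FMT against HS were -0.02 and 0.03, against 0.01 and 0.00 over all genes.

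**Figure D3:**
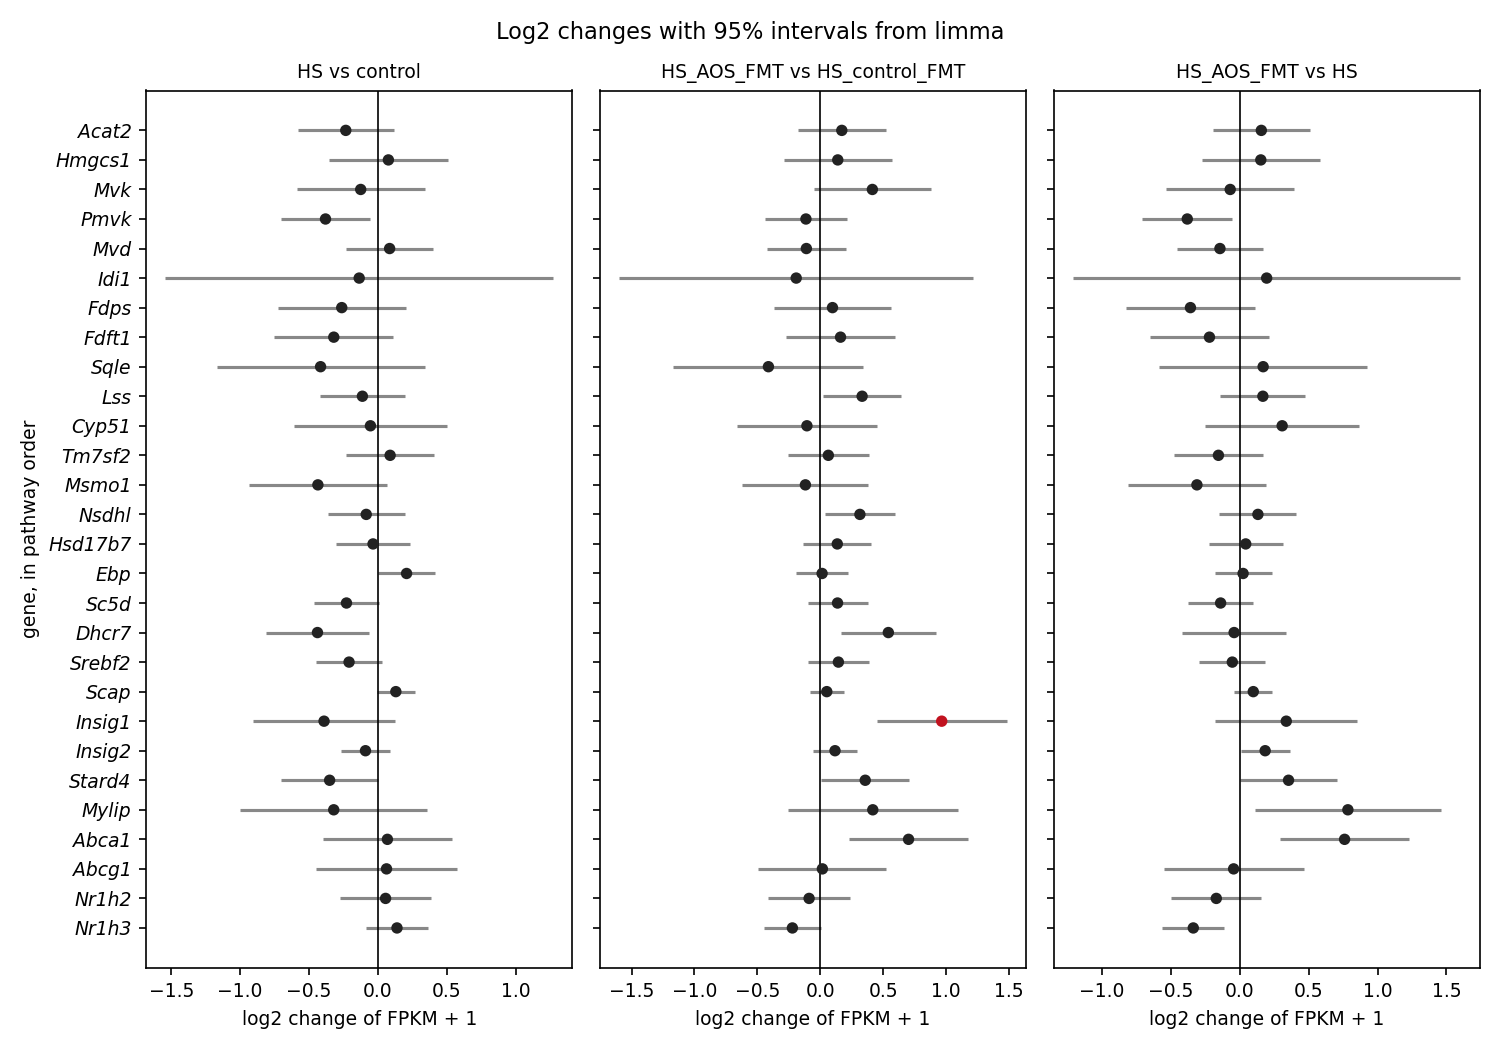
Log2 difference of FPKM + 1 for each of the 28 genes (rows, in pathway order) in HS against control, HS_AOS_FMT against HS_control_FMT and HS_AOS_FMT against HS. Points are limma's estimates, lines their unadjusted 95% intervals, and red marks an adjusted p under 0.05. Insig1 in the middle panel, at 0.96, is the only red point.

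Among the enzymes of the mevalonate steps, Pmvk carried the clearest pattern over the groups, with its lowest levels in the 3 treated HS groups. Pmvk, phosphomevalonate kinase, lies on chromosome 3. It was at 5.03, 5.83 and 6.41 FPKM in HS_AOS, 5.37, 5.56 and 6.99 FPKM in HS_AOS_FMT, 7.24, 6.8 and 5.59 FPKM in HS_control_FMT and 6.86, 7.89 and 9.56 FPKM in HS. It was at 9.55, 7.01 and 7.94 FPKM in AOS and 11.15, 8.78 and 12.7 FPKM in control. All 3 HS_AOS libraries lay below all 3 HS libraries, while HS_AOS_FMT, HS_control_FMT and AOS overlapped HS or control, and HS overlapped control. The log2 difference was -0.42 (SE 0.15) in HS_AOS against HS (adjusted p = 0.141), -0.38 in HS_AOS_FMT against HS (0.202), -0.38 (SE 0.15) in HS against control (0.700) and -0.37 in AOS against control (0.674), and none passed. With the GC and length trend removed the differences of HS_AOS and HS_AOS_FMT from HS were both -0.16 (adjusted p = 0.674 and 0.695), and without the adrenal-rich libraries HS_AOS_FMT differed from HS by -0.23. The F test did not call Pmvk with the GC and length trend of the libraries removed (adjusted p = 0.0762), without control 1 (0.0529) or when the adrenal-rich libraries were left out (0.0656).

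The other mevalonate enzymes overlapped more. Mvd, mevalonate diphosphate decarboxylase, was at 31.65, 30.75 and 33.0 FPKM in HS_AOS and 37.5, 39.3 and 41.6 FPKM in HS, with no overlap (log2 difference -0.30, adjusted p = 0.264). Its transcript has 59.0% GC, and with the GC and length trend removed this difference was -0.07 (adjusted p = 0.918). Mvd was at 46.7, 39.3 and 52.9 FPKM in AOS and 41.4, 44.3 and 27.8 FPKM in control, where control 3 was the lowest of all libraries. The difference between the 2 effects of AOS was -0.60 on the log2 scale (SE 0.21, adjusted p = 0.226), the smallest p of the 28 genes in that comparison, and did not pass. It was -0.36 without the adrenal-rich libraries. Mvk, mevalonate kinase, averaged 4.31 ± 0.70 FPKM in HS_control_FMT and 6.72 ± 2.61 FPKM in HS (SD, n = 3 each; adjusted p = 0.315), and Fdps, which makes farnesyl diphosphate, 13.4 ± 1.16 and 19.3 ± 5.77 FPKM in the same groups (0.337). Hmgcs1 differed by at most 0.18 between the groups of the 6 pairwise comparisons, with adjusted p of 0.652 or more, and Acat2, a thiolase at the head of the pathway, by at most 0.23. Reads of Acat2 may be split with the near-identical copy Acat3, and exons of Fdps overlap another annotated gene on the same strand, so both levels are uncertain.

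Of the squalene and sterol steps, Dhcr7, the reductase that makes cholesterol from its last precursor, varied most clearly over the groups. It was at 10.3, 9.44 and 9.11 FPKM in HS_AOS, 8.61, 15.3 and 11.96 FPKM in HS_AOS_FMT, 7.1, 7.44 and 8.66 FPKM in HS_control_FMT and 10.8, 11.2 and 14.4 FPKM in HS. It was at 13.0, 11.5 and 14 FPKM in AOS and 13.3, 16.8 and 20.7 FPKM in control. HS_control_FMT and HS_AOS each lay wholly below HS, and HS_AOS_FMT 1 fell inside the range of HS_control_FMT. The log2 difference was -0.58 (SE 0.18) in HS_control_FMT against HS (adjusted p = 0.140), 0.54 in HS_AOS_FMT against HS_control_FMT (0.0992) and -0.44 in HS against control (0.700). The highest libraries of HS_AOS_FMT, HS and control were the 3 adrenal-rich ones. Without those 3 the F test still called Dhcr7 and the 3 log2 differences were -0.46, 0.36 and -0.41, while without HS_control_FMT 1 or HS_control_FMT 2 it was not called (adjusted p = 0.0688 and 0.0641).

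Sc5d, the lathosterol desaturase, and Ebp, the isomerase before it, differed most between AOS and control in p, in opposite directions. Sc5d was at 6.04, 4.7 and 5.38 FPKM in AOS and 7.5, 6.62 and 7.35 FPKM in control, with no overlap (log2 difference -0.36, SE 0.11, adjusted p = 0.674). It was at 5.13, 6.19 and 6.94 FPKM in HS_AOS, 5.37, 5.48 and 5.1 FPKM in HS_AOS_FMT, 4.55, 5.3 and 4.42 FPKM in HS_control_FMT and 5.69, 5.48 and 6.76 FPKM in HS. HS_control_FMT lay wholly below HS (log2 difference -0.28, adjusted p = 0.264), and the difference between the effects of AOS in HS and in control was 0.38 (adjusted p = 0.285). With quantile normalization Sc5d differed by -0.22 between AOS and control and by -0.18 between HS_control_FMT and HS, and with the GC and length trend removed the difference between the effects was 0.13. Ebp was at 58.4, 57.3 and 56.8 FPKM in AOS, 55.3, 56.6 and 53.5 FPKM in HS and 49.5, 52.0 and 41.8 FPKM in control. Both AOS and HS lay wholly above control, by 0.27 (adjusted p = 0.674) and 0.21 (0.751), and HS_AOS (52.1 to 61.6 FPKM), HS_AOS_FMT (54.4 to 57.1) and HS_control_FMT (48.6 to 63.6) overlapped HS. Without the adrenal-rich libraries AOS and HS differed from control in Ebp by 0.18 and 0.14. Ebp and Scap were the 2 of the 28 genes without overlap between HS and control, against 8.53% of all genes, and 5 of the 28 had none between AOS and control, against 13.1%.

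Among the other sterol enzymes Lss and Nsdhl did not overlap between the transplant groups. Lss averaged 3.64 ± 0.39 FPKM in HS_AOS_FMT and 2.68 ± 0.19 FPKM in HS_control_FMT (log2 difference 0.33, adjusted p = 0.214), and Nsdhl, a dehydrogenase that helps to strip the methyl groups of lanosterol, 67.6 ± 7.75 and 54.4 ± 8.47 FPKM (0.31, adjusted p = 0.193; SD, n = 3 each). All 3 HS_AOS_FMT libraries were the higher ones for both genes, and the Lss difference was 0.20 with quantile normalization or with the GC and length trend removed. Sqle, squalene epoxidase, averaged 31.0 ± 15.9 FPKM in HS_control_FMT, where its 3 libraries were at 31.7, 46.6 and 14.9 FPKM, and 14.2 to 36.8 FPKM spanned the other groups. The rest of the sterol enzymes (Fdft1, Cyp51, Tm7sf2, Msmo1 and Hsd17b7) had adjusted p of 0.389 or more in the 6 pairwise comparisons. Exons of Fdft1 overlap Ctsb and exons of Cyp51 overlap Akap9 on the other strand, exons of Tm7sf2 overlap Vps51 on the same strand, and the strandedness of the counting is not given in the sources used here, so reads of these pairs may be mixed.

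In the SREBP2 system Insig1 rose in HS_AOS_FMT against HS_control_FMT. Insig1, which holds SCAP in the endoplasmic reticulum and is itself a target of SREBP2, was at 13.0, 17.8 and 15.6 FPKM in HS_AOS_FMT and 9.3, 7.47 and 5.76 FPKM in HS_control_FMT. It was at 13.5, 9.76 and 12.3 FPKM in HS_AOS, 9.42, 10.6 and 17.0 FPKM in HS, 18.4, 12.8 and 12.5 FPKM in AOS and 12.01, 15.2 and 22.2 FPKM in control. All 3 HS_AOS_FMT libraries lay above all 3 HS_control_FMT libraries, and the 3 HS_control_FMT libraries also lay below every library of the other 5 groups. The log2 difference between the transplant groups was 0.96 (SE 0.24, 95% interval 0.45 to 1.48, adjusted p = 0.0396). Against HS, HS_AOS_FMT differed by 0.34 (adjusted p = 0.494) and HS_control_FMT by -0.63 (0.244), and HS differed from control by -0.39 (0.845). These were -0.39 for HS_control_FMT against HS without the adrenal-rich libraries and -0.17 for HS against control without control 3.

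The Insig1 call was close to the threshold. Without the 3 adrenal-rich libraries the difference was 0.86 (adjusted p = 0.0511), while the F test over the groups passed (0.0410); it was 0.96 with no filter on low values (0.0582), and without any single library of either transplant group 0.81 to 1.11 (adjusted p = 0.0584 to 0.177): 1.08, 0.86 and 0.95 without HS_AOS_FMT 1, 2 and 3, and 1.11, 0.97 and 0.81 without HS_control_FMT 1, 2 and 3. Adrenal markers moved with the same groups: their summed level was 74.5 to 525 FPKM in HS_AOS_FMT and 59.2 to 62.3 FPKM in HS_control_FMT, all 14 tested markers of 15 had a higher mean in HS_AOS_FMT with 0 called, and Cyp11b2, Pnmt, Th and Dbh were listed at 0 in all 3 HS_control_FMT libraries. HS_AOS_FMT 1, at 74.5 FPKM of adrenal markers, had 13.0 FPKM of Insig1, above the 9.3 FPKM of the highest HS_control_FMT library. HS_AOS_FMT 3, at 138 FPKM of adrenal markers, had 15.6 FPKM of Insig1. Leaving out the adrenal-rich libraries took only HS_AOS_FMT 2 from the transplant groups and kept HS_AOS_FMT 3. The 0.86 is thus the same estimate as without HS_AOS_FMT 2. The part of adrenal RNA in the size of the difference was not tested beyond these values.

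Srebf2, Scap and Insig2 did not pass the F test (adjusted p = 0.105, 0.116 and 0.296). For Srebf2 it was 0.0512 with quantile normalization and 0.0523 with the GC and length trend removed. Srebf2 lay at 12.9 to 15.6 FPKM in HS_AOS, 13.3 to 15.4 FPKM in HS_AOS_FMT and 11.9 to 14.9 FPKM in HS_control_FMT. In control it lay at 16.0 to 19.0 FPKM, above all of these, and these groups were not compared with control in a test. Srebf2, which encodes SREBP2, averaged 13.2 ± 1.51 FPKM in HS_control_FMT, 15.3 ± 1.75 FPKM in HS and 17.8 ± 1.60 FPKM in control (SD, n = 3 each), with adjusted p of 0.423 for HS_control_FMT against HS and 0.802 for HS against control. Insig2, the second INSIG gene, averaged 17.4 ± 0.40 FPKM in HS_AOS_FMT and 15.2 ± 0.54 FPKM in HS, with no overlap, and a log2 difference of 0.18 (adjusted p = 0.258). Scap averaged 23.8 ± 0.63 FPKM in HS and 21.7 ± 0.69 FPKM in control, again with no overlap and without passing (0.13, adjusted p = 0.786).

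Stard4, a carrier that moves sterol between membranes, was higher in HS_AOS than in HS in every library. It was at 11.7, 13.3 and 13.4 FPKM in HS_AOS, 10.2, 11.7 and 13.45 FPKM in HS_AOS_FMT, 9.29, 10.3 and 7.42 FPKM in HS_control_FMT and 9.06, 8.24 and 9.56 FPKM in HS. It was at 10.9, 9.38 and 9.93 FPKM in AOS and 8.64, 11.6 and 15.8 FPKM in control. HS_AOS and HS_AOS_FMT lay wholly above HS, HS_AOS_FMT overlapped HS_control_FMT by 1 library, and control held both low and high values. The log2 difference was 0.47 (SE 0.16) in HS_AOS against HS (adjusted p = 0.126), 0.35 in HS_AOS_FMT against HS (0.271) and -0.35 in HS against control (0.751). It was 0.67 (adjusted p = 0.227) for the difference between the effects of AOS. With the GC and length trend removed HS_AOS_FMT differed from HS by 0.22 and the effects of AOS by 0.42, and without the adrenal-rich libraries HS differed from control by -0.19. Without control 3, which is in neither group but in the shared estimate of the spread, Stard4 passed in HS_AOS against HS (adjusted p = 0.0412) at the same log2 difference. Erythroid markers moved with these groups: the summed level of 6 was 3232 to 4681 FPKM in HS_AOS, 3264 to 4085 FPKM in HS_AOS_FMT and 7069 to 15529 FPKM in HS, with no overlap with HS. All 5 of the 6 that were tested had a lower mean in HS_AOS and in HS_AOS_FMT than in HS (median log2 difference -1.25 and -1.57) with 0 called. The part of blood in these differences from HS was not tested. The same holds for every other gene compared between HS and HS_AOS or HS_AOS_FMT, among them Pmvk, Mvd, Insig2, Mylip and Abca1.

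Mylip, the ubiquitin ligase of lipoprotein receptors, lay at 14.2 to 17.9 FPKM in HS_AOS_FMT and 6.92 to 10.5 FPKM in HS, with no overlap (log2 difference 0.78, SE 0.32, adjusted p = 0.206). It lay at 8.82 to 16.1 FPKM in HS_AOS, 8.87 to 14.3 FPKM in HS_control_FMT, 10.9 to 13.5 FPKM in AOS and 7.67 to 22.9 FPKM in control, the last spanning nearly the whole range because of control 3. Without control 3 the adjusted p for HS_AOS_FMT against HS was 0.0489.

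Of the efflux genes, Abca1 had its highest levels in HS_AOS_FMT. Abca1 loads cholesterol onto lipid-poor apolipoprotein. It was at 6.9, 7.32 and 5.61 FPKM in HS_AOS_FMT, 3.57, 3.77 and 3.64 FPKM in HS_control_FMT, 2.41, 3.65 and 3.93 FPKM in HS_AOS and 3.09, 3.09 and 4.34 FPKM in HS. It was at 2.35, 2.26 and 1.7 FPKM in AOS and 2.06, 2.88 and 5.52 FPKM in control. The 3 HS_AOS_FMT libraries were the highest of all 18, and the 3 HS_control_FMT libraries lay within 0.2 FPKM of each other. The log2 difference was 0.76 (SE 0.22) in HS_AOS_FMT against HS (adjusted p = 0.0962), 0.70 (SE 0.22) in HS_AOS_FMT against HS_control_FMT (0.0890) and -0.46 in AOS against control (0.674), so the pairwise comparisons did not pass. Without control 3, which is in none of these groups but in the shared spread, HS_AOS_FMT passed against HS (adjusted p = 0.0200) and against HS_control_FMT (0.0149). The F test over the 6 groups, which called Abca1, did not call it without any 1 of HS_AOS_FMT 1 to 3, HS_control_FMT 1 or 2, or AOS 1 to 3 (adjusted p = 0.0523 to 0.0955). Without the 3 adrenal-rich libraries the pairwise differences were 0.82 and 0.63 in the same order as above for the transplant groups, with adjusted p of 0.178 and 0.0681, and AOS differed from control by -0.16. Macrophages are rich in ABCA1, and the summed level of 8 macrophage markers was 71.0 to 88.4 FPKM in HS_AOS_FMT, 59.7 to 147 FPKM in HS_control_FMT and 69.3 to 150 FPKM in HS. The ranges of the marker sum overlapped, and the part of macrophages in the level of Abca1 was not tested.

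Abcg1 differed by at most 0.20 between the groups compared. Of the LXR receptors, Nr1h3 was lower in HS_AOS and HS_AOS_FMT than in HS in every library, without passing. It was at 25.6, 23.9 and 23.8 FPKM in HS_AOS, 25.9, 25.9 and 24.9 FPKM in HS_AOS_FMT, 31.0, 29.7 and 29.25 FPKM in HS_control_FMT and 30.1, 35.5 and 32.3 FPKM in HS. It was at 29.65, 26.6 and 27.4 FPKM in AOS and 35.3, 30.5 and 23.9 FPKM in control. Neither HS_AOS nor HS_AOS_FMT overlapped HS, and HS_AOS_FMT lay wholly below HS_control_FMT. The log2 difference was -0.40 (SE 0.11) in HS_AOS against HS (adjusted p = 0.0584) and -0.34 in HS_AOS_FMT against HS (0.1203). With the GC and length trend removed, it was -0.22 (adjusted p = 0.550) and -0.19 (0.637). Without control 3 the differences of -0.40 and -0.34 both passed (adjusted p = 0.0129 and 0.0246), and without the adrenal-rich libraries Nr1h3 passed the F test (0.0332). The erythroid marker sum was lower in the same groups, at 3232 to 4681 FPKM in HS_AOS and 3264 to 4085 FPKM in HS_AOS_FMT, against 7069 to 15529 FPKM in HS, and its part was not tested. The Nr1h3 transcript has 56.8% GC, and rho with GC content over all genes was -0.592 to 0.110 in the HS_AOS libraries and 0.208 to 0.332 in HS. Nr1h2 differed by at most 0.19, with adjusted p of 0.508 or more in the 6 pairwise comparisons.

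**Figure D4:**
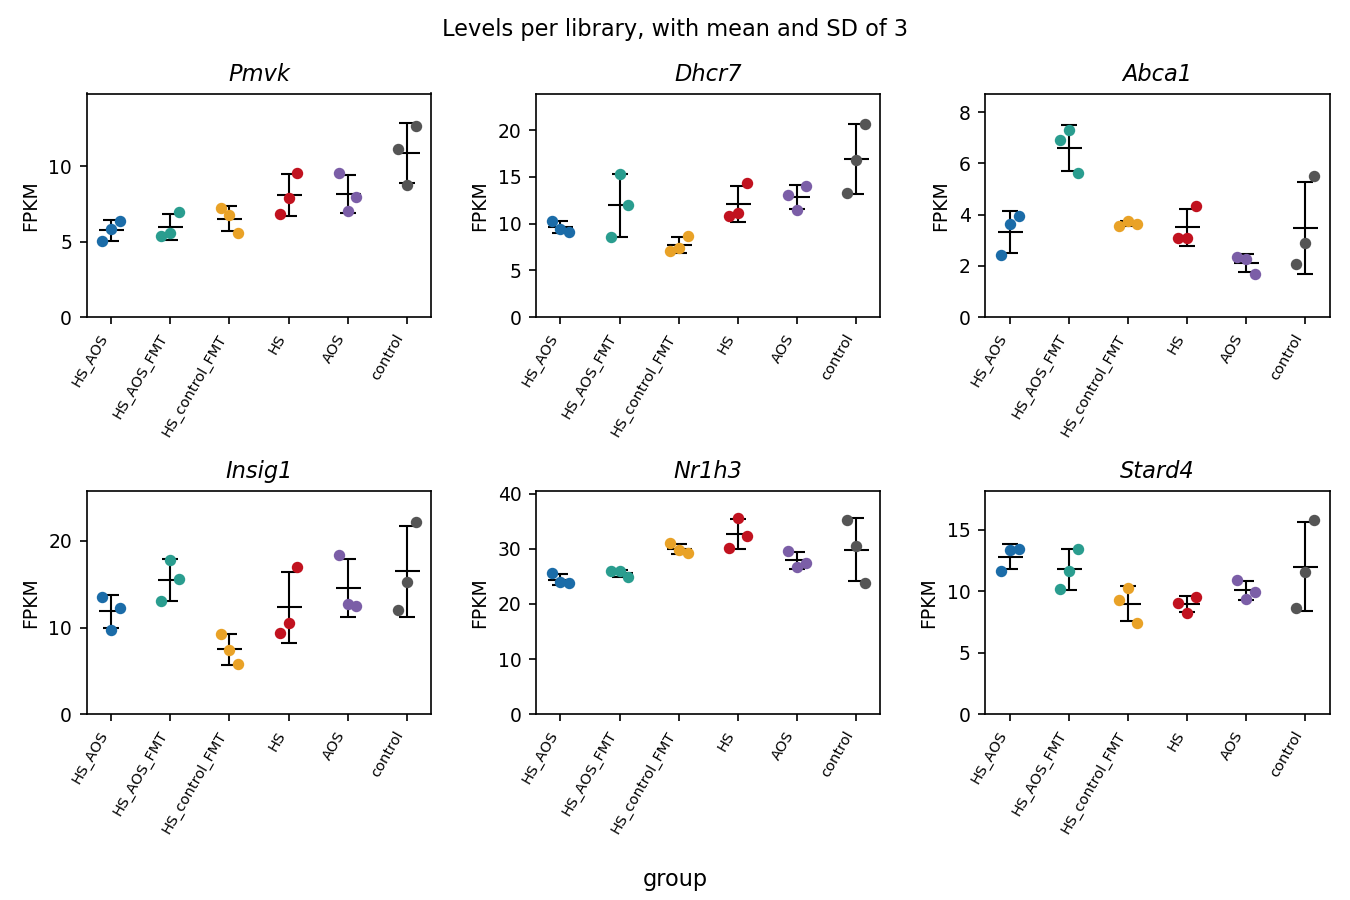
FPKM per library (points) with the mean and SD of 3 (bars) in each of the 6 groups for Pmvk, Dhcr7, Abca1, Insig1, Nr1h3 and Stard4; each vertical axis starts at 0. The 3 HS_AOS_FMT libraries of Abca1 are the highest of all 18, and the 3 HS_control_FMT libraries of Insig1 are the lowest.

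Values of HS_AOS_FMT and HS_control_FMT did not overlap for 7 of the 28, against 29.3% of all genes. The counts were 6 in HS_AOS_FMT against HS (29.5% of all genes), 6 in HS_AOS against HS (24.7%) and 3 in HS_control_FMT against HS (25.3%), and in these comparisons the share among the 28 lay below that of all genes. The 3 adrenal-rich libraries were the highest of their group for 12 (HS_AOS_FMT 2), 14 (HS 3) and 19 (control 3) of the 28 genes, which is 42.9%, 50% and 67.9%, against 49.3%, 29.9% and 68.6% of all genes tested. For Lss, Dhcr7, Insig1 and Abca1 all 3 were the highest of their group. The share of all genes for which this holds was not counted, so it is not read as a trait of these genes.

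Other genes of the pathway were followed in 5 lists. Of 11 genes of the non-sterol branches of mevalonate, 1 passed: Nus1, a subunit of the enzyme that makes dolichol, was at 107, 103 and 109 FPKM in HS_AOS and 85.2, 81.6 and 79.6 FPKM in HS (log2 difference 0.36, adjusted p = 0.0340). Of 16 genes of cholesterol transport, storage and uptake, 15 were tested and Vldlr and Gramd1b passed. Vldlr, a lipoprotein receptor that MYLIP also targets, was at 15.97, 14.96 and 16.2 FPKM in HS_AOS and 14.5, 16.2 and 15.5 FPKM in HS_AOS_FMT. It was at 13.1, 10.7 and 12.2 FPKM in HS_control_FMT and 13.3, 12.2 and 11.4 FPKM in HS. It rose by 0.33 in HS_AOS against HS (adjusted p = 0.0413) and by 0.34 in HS_AOS_FMT against HS_control_FMT (0.0315), and the groups did not overlap in either. The erythroid marker sum, at 3232 to 4681 FPKM in HS_AOS against 7069 to 15529 FPKM in HS, moved with the Nus1 and Vldlr differences between these groups, and its part was not tested.

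Gramd1b, a protein that carries cholesterol from the plasma membrane to the endoplasmic reticulum, was high in HS_control_FMT. It was at 60.1, 49.3 and 44.9 FPKM there, 22.9, 31.4 and 28.4 FPKM in HS_AOS_FMT and 17.1, 22.5 and 23.5 FPKM in HS. It rose by 1.25 in HS_control_FMT against HS (SE 0.20, adjusted p = 0.0108) and was lower by a log2 difference of -0.88 in HS_AOS_FMT against HS_control_FMT (adjusted p = 0.0283), with no overlap in either. Gramd1b was not called in HS_control_FMT against HS without HS_control_FMT 1 (adjusted p = 0.0610) or HS 1 (0.0704), nor in HS_AOS_FMT against HS_control_FMT without any 1 of the 6 libraries other than HS_control_FMT 3 (0.0563 to 0.111). With the GC and length trend removed neither Nus1 (adjusted p = 0.198) nor Vldlr (0.456 and 0.284) was called. Without the adrenal-rich libraries neither passed (0.114 for Nus1, 0.141 and 0.0970 for Vldlr), nor did they with a replicate block (0.0597, 0.0633 and 0.0511), and Vldlr did not pass with quantile normalization (0.0650 and 0.145). In HS_AOS against HS both lost their call without HS_AOS 2, HS_AOS 3, HS 2 or HS 3 (adjusted p = 0.0743 to 0.199), and Vldlr lost it in HS_AOS_FMT against HS_control_FMT without any 1 of the 6 libraries other than HS_control_FMT 1 (0.0564 to 0.151).

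The other 3 lists held no pairwise call. Of 8 further genes of SREBP processing and sterol sensing, 0 passed in a pairwise comparison, and Erlin1, which helps to degrade INSIG proteins, passed the F test (adjusted p = 0.0434), though not without any 1 of 14 of the 18 libraries (0.0585 to 0.0890), without the adrenal-rich ones (0.0526), with quantile normalization (0.116), with a replicate block (0.0844) or with the GC and length trend removed (0.143). Erlin1 averaged 26.6 ± 0.10 FPKM in HS_control_FMT and 20.3 ± 0.47 FPKM in HS (SD, n = 3 each; log2 difference 0.37, adjusted p = 0.124). Of 6 genes of oxysterol and cholesterol breakdown 0 passed, and Cyp7b1, an oxysterol hydroxylase, ranged from 1.92 to 40.4 FPKM in HS_AOS and 16.9 to 61.1 FPKM in HS (adjusted p = 0.210). Of 8 further LXR targets and partners, 6 were tested and 0 passed. Abca5 averaged 2.36 ± 0.39 FPKM in HS_AOS_FMT and 1.54 ± 0.13 FPKM in HS (adjusted p = 0.148).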

How the data were processed

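The authors deposited 1 table of FPKM per gene symbol and sample, with 19545 genes in 18 kidney samples. The submitters' processing notes name Bowtie 0.12.2 and mm10. What made the FPKM, with which annotation and strand setting, is not given in the sources used here. That these are FPKM was read from the values: FPKM times transcript length summed to nearly the same total in each library (coefficient of variation 0.93%; plain sums 4.29%). The sums of FPKM were 6.29e+05 to 7.22e+05, and 15773 to 17270 genes were above 0. Whole reads could not be recovered, so depth is unknown and no count test was run.

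Values were taken as log2(FPKM + 1), a pseudocount of 1. The filter asked for 1 FPKM or more in 3 samples or more (12385 genes kept, 7160 left out). In limma 3.58.1 (R 4.3.3), with trend and robust options, the fit gave each group its mean and had 12 residual degrees of freedom. P-values are limma's, two-sided and adjusted over all genes (Benjamini-Hochberg, threshold 0.05). The fit was also tested on simulated data, whose settings and outcome are not given here, and no support is drawn from that. Means are given with the SD of 3 samples. All 28 members could be named. Values of every sample are given for members that passed, for the 3 with the smallest p in a comparison where fewer passed, and for the 6 with the smallest p of the F test. From other lists those that passed, or else the smallest p, are named. Members and lists were chosen with earlier results of these data known. Alternatives were a replicate block, quantile normalization, other filters and pseudocount, limma without its options, the compared groups alone, removal of each library's GC and length trend (natural splines with 4 degrees of freedom, 12254 genes, 98.9%), leaving out the 3 adrenal-rich libraries, and each library left out. The block with the trend removed was added after seeing the data. Positions and promoters are of GRCm38, from GENCODE vM21 and RefSeq.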

Additional observations from a re-analysis of the deposited data

Results flagged for a closer look

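Insig1 differed between the kidneys of the 2 transplant groups by a test of the difference itself. The log2 difference was 0.96 in HS_AOS_FMT against HS_control_FMT (limma, adjusted p = 0.0396), with 3 of 3 HS_AOS_FMT libraries above all 3 HS_control_FMT libraries. It was 0.86 without the 3 adrenal-rich libraries (adjusted p = 0.0511), of which only HS_AOS_FMT 2 is in these groups. The call was also lost with a replicate block (adjusted p = 0.0647), with no filter on low values (0.0582) and without any 1 library of the 2 groups (0.0584 to 0.177).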

How the results depend on the processing

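The samples give no depth, so low genes such as Abcg1 and Lss carry unknown counting error. In HS_AOS_FMT against HS_control_FMT the 1 called gene of the 28 became 0 with a replicate block, 0 with no filter on low values, 0 without the 3 adrenal-rich libraries, and 2 (Insig1, and Abca1 with adjusted p = 0.0339) with the compared groups alone in the fit; leaving out 1 library gave 0 to 2. In HS_AOS against HS the count of 0 became 1 (Nr1h3, adjusted p = 0.0452) with at least 5 FPKM in 3 samples, and 0 to 2 with 1 library left out, where HS_AOS 1, HS 1 and control 3 each added calls. In HS_AOS_FMT against HS it was 0 to 3 with 1 library left out, the 3 (Abca1, Nr1h3 and Mylip) without control 3. The F test called 1 to 6 with 1 library left out: 1 without HS_control_FMT 1 or HS_control_FMT 2, and 6 without control 3. Leaving out control 3 moved the F test from 1017 to 2511 genes over all genes. The cause was not tested. HS against control, HS_control_FMT against HS, AOS against control and the AOS effect in HS minus that in control stayed at 0 of 28 under each alternative run. Over the named genes 614 values under alternatives kept their side of the threshold, 18 passed only there and 89 no longer passed, and no direction reversed among called values.

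Same-numbered samples did not deviate together: over 45 pairs of libraries with the same number the correlation ran from -0.356 to 0.312 with a median of -0.01, 14 pairs were over 0.1, and 5 of 18 libraries correlated best with a library of their own number. With the replicate block the Insig1 difference stayed at 0.96 (adjusted p = 0.0647), and over all genes HS_AOS against HS had 89 calls in place of 285, HS_AOS_FMT against HS 37 in place of 121 and HS_AOS_FMT against HS_control_FMT 276 in place of 494. DESeq2 was not run, since the table holds no counts.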
